A study of Mus musculus with 12 samples.

Results

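Xrcc6, Xrcc5, Xrcc4, Mrnip, Mre11a, Rad50, Nbn and Parp1 encode proteins that find, hold and rejoin broken DNA, and their transcripts were followed in the ventral hippocampus of Angelman syndrome (AS) and wild-type (WT) mice. These 8 genes, of 13951 in the deposited table, were taken by symbol from a list of double-strand break repair genes. Xrcc6 and Mrnip were chosen by their values in these data, which were higher in the AS libraries, so the genotype differences of these genes are described without a test. Polyadenylated RNA of 12 mice was sequenced, 1 library per mouse, with 3 AS females, 3 WT females, 3 AS males and 3 WT males. All mice were of the C57BL/6J strain and 12 to 16 weeks old, and the tissue was the ventral part of the right hippocampus, snap frozen. In people, Angelman syndrome follows when the maternally inherited UBE3A gene, which encodes a ubiquitin ligase, is lost or silent. The labels do not state which mutation the AS mice carried.

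A double-strand break cuts both strands of the DNA helix. In cells that no longer divide, such as neurons, most breaks are rejoined by non-homologous end joining, which starts when the Ku ring closes around the broken end. Ku is a dimer of Ku70, the product of Xrcc6, and Ku80, the product of Xrcc5. It recruits the kinase DNA-PKcs, and the ends are sealed by DNA ligase IV, which XRCC4 holds in place. The MRN complex of MRE11, RAD50 and NBS1 (the product of Nbn) also binds breaks, activates the kinase ATM and trims ends for homologous recombination, and MRNIP is a partner of that complex. PARP1 senses breaks and marks nearby proteins with poly(ADP-ribose).

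The promoters of Xrcc6 and Mrnip are shown because these transcripts stood higher in AS libraries, and that of Xrcc5 because its product is the partner of Ku70. Each is the 300-base window from 250 bases before to 50 bases after the start in RefSeq (build GRCm38.p6), written 5′ to 3′ on the gene's own strand. Capitals mark the GC box (GGGCGG) and the CCAAT box, each on either strand.

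Xrcc6, chr15:82016119-82016418, plus strand: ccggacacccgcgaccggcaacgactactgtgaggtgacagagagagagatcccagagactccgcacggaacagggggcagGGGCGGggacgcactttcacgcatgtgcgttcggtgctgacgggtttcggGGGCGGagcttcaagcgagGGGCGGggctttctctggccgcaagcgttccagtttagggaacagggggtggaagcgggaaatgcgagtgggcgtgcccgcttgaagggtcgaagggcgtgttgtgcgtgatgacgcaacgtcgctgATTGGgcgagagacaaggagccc

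Mrnip, chr11:50174601-50174900, plus strand: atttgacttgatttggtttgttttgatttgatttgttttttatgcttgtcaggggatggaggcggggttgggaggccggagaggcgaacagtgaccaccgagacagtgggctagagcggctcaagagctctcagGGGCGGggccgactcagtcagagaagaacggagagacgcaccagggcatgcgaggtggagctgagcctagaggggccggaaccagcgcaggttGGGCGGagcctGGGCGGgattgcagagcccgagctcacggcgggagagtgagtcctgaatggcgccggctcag

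Xrcc5, chr1:72307171-72307470, plus strand: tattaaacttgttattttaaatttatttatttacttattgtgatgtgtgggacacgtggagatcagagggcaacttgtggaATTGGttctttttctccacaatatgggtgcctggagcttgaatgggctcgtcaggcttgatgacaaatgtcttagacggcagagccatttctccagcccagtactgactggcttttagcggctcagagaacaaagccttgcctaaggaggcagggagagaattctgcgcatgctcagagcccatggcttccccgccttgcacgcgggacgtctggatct

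The Xrcc6 window held 3 GC boxes and 1 CCAAT box, that of Mrnip 3 GC boxes and no CCAAT box, and that of Xrcc5 no GC box and 1 CCAAT box. Of 32817 promoter windows of this length in the table, 35.6% held a GC box and 37.4% a CCAAT box. The windows of Xrcc4 and Mre11a held 3 GC boxes each, and that of Parp1 held 4. Windows were found for 6 of the 8 genes, the exceptions being Rad50 and Nbn. The Xrcc5 window had the lowest G and C content of the 6, with 48.0% G and C and 9 CpG dinucleotides, against 64.3% and 30 for Xrcc6, 60.7% and 19 for Mrnip and medians of 52.7% and 7 over all windows. The CRE half-site (TGACG, either strand) occurred 2 times in the windows of Xrcc6 and Mre11a, once in that of Xrcc5 and in 20.8% of all windows. The E-box (CACGTG) occurred once each in the windows of Xrcc5 and Parp1 and in 7.1% of all windows.

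Of the 6 genes with a window, 3 start back to back with another gene on the opposite strand. In RefSeq, the start of Desi1 lies 149 bases from that of Xrcc6, the start of Ankrd49 81 bases from that of Mre11a, and the start of Tmem167 59 bases from that of Xrcc4. The GRCm38 gene annotation used for coordinates below places the outer ends of Xrcc6 (from 81987835) and Desi1 (to 82033862) beyond these starts, so the printed Xrcc6 window lies inside both gene spans of that annotation. Of all windows, 8.3% have a start of another gene on the opposite strand within 300 bases upstream. Pearson's r over the 12 libraries, given as a description, was 0.18 between Xrcc6 and Desi1, 0.17 between Mre11a and Ankrd49 and 0.39 between Xrcc4 and Tmem167.

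Values are given as log2(abundance + 1), with abundance read from the deposited values taken as natural logs. It is assumed to be corrected for gene length, which the sources used here do not state, and comparisons between genes rest on that. The difference of 2 groups is AS minus WT on the log2 scale unless named otherwise. All 8 genes passed the filter at a mean abundance of 1, which 13858 genes passed. Parp1 was the most abundant, at a mean of 4.98 over the 12 libraries (range 4.87 to 5.17), above 75.7% of the genes tested. Xrcc6 followed at 3.69 (3.43 to 4.02), then Xrcc4 at 3.24 (2.93 to 3.66), Xrcc5 at 3.21 (2.89 to 3.40) and Nbn at 3.19 (3.04 to 3.35). Mrnip at 2.94 (2.58 to 3.22), Rad50 at 2.68 (2.46 to 2.86) and Mre11a at 2.37 (2.07 to 2.61) were the lowest, Mre11a standing above 22.1% of the genes tested. In this order, the range of Parp1 alone did not overlap that of its neighbour. Xrcc4 was above Xrcc5 in 6 of 12 libraries and Xrcc5 above Nbn in 6 of 12, so those levels had no order beyond their spread. The 3 MRN genes kept 1 order within every library, with Nbn above Rad50 and Rad50 above Mre11a in 12 of 12.

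A few facts of the libraries touch these results. One WT female library went against its sex label by Xist, at 0.35 where the other females had 6.00 to 6.44, but not by 4 Y-linked genes, whose mean was 0.68, against 0.24 to 0.93 in the other females and 3.86 to 4.19 in males. It was kept, and values without it are given beside the results of Xrcc6, Xrcc4, Mrnip and Parp1. For the other 4 genes the difference in females was then -0.20 for Xrcc5, 0.14 for Mre11a, 0.05 for Rad50 and -0.13 for Nbn. Markers of the choroid plexus, a secretory epithelium next to the hippocampus, summed to an abundance of 4429 in 1 AS female, 897 in 1 AS male and 4645 and 2580 in 2 WT females, against 79.6 to 209 in the other libraries. Without these 4 libraries the third WT female is the only WT female left, so differences in females in that setting rest on it. Markers of excitatory neurons were all present, at 3.47 or more in every library. Ube3a transcript averaged 4.12 ± 0.15 in AS females and 4.24 ± 0.13 in WT females, and 4.03 ± 0.27 in AS males and 4.07 ± 0.12 in WT males (SD, n = 3 each), with adjusted p of 1 and 0.968 by limma, so the transcript level did not check the genotype labels. The labels do not say whether the mice of a group shared a litter. The limma p-values set a difference against the spread between these mice within the 4 groups, drawn toward a trend over all genes tested. They take each mouse as independent. In bulk tissue, fewer cells of a type and less RNA per cell cannot be told apart.

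**Figure D1:**
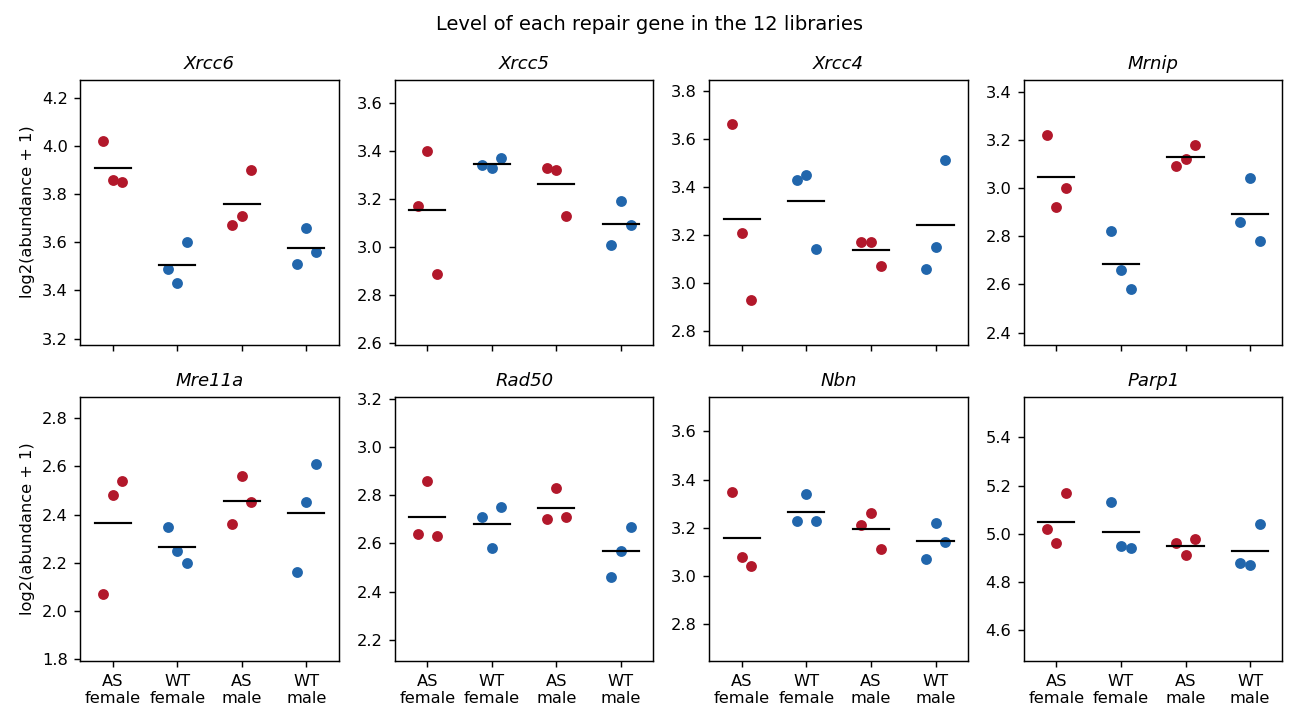
Level of each of the 8 repair genes in the 12 libraries, in log2(abundance + 1) on the vertical axes, which all span the same width. Points are libraries, AS in red and WT in blue, and lines are group means of 3 libraries; the Xrcc6 points of the 6 AS libraries all lie at 3.67 or above, while the 6 WT points reach 3.66 at most.

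Xrcc6, which encodes Ku70, was measured at 4.02, 3.86 and 3.85 in AS females and 3.49, 3.43 and 3.60 in WT females. Among males, values were 3.67, 3.71 and 3.90 in AS and 3.51, 3.66 and 3.56 in WT. Every AS library was above every WT library, the nearest pair being an AS male at 3.67 and a WT male at 3.66, and the AS females had the highest mean. The difference was 0.41 ± 0.09 (SE of the model) in females, 0.18 ± 0.09 in males and 0.30 ± 0.06 over both sexes, a ratio of 1.23 of abundance + 1. The difference in females was at the 98.5th percentile of all genes tested and that in males at the 90.2nd. These values chose the gene and are a description. Without the WT female library that went against its sex label the difference was 0.40 in females. With the 4 libraries richest in choroid plexus markers left out it was 0.34 in females and 0.21 in males. The value in females then rests on a single WT female, the third, at 3.60. Xrcc6 lies on chromosome 15 (81987835 to 82040085, plus strand, GRCm38, ENSMUSG00000022471).

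Xrcc5, which encodes Ku80, passed no test between genotypes. It was measured at 3.17, 3.40 and 2.89 in AS females and 3.34, 3.33 and 3.37 in WT females. The male values were 3.33, 3.32 and 3.13 in AS and 3.01, 3.19 and 3.09 in WT. The AS females were spread widely on both sides of the WT females, and the groups overlapped in each sex. The difference was -0.19 ± 0.12 in females (adjusted p = 1 by limma) and 0.16 ± 0.12 in males (adjusted p = 0.83). Single libraries moved the value in females, which was -0.06 without the AS female at 2.89 and -0.32 without the AS female at 3.40 (unadjusted p = 0.013, adjusted p = 0.873). Over both sexes it was -0.02, with a 95% interval of -0.20 to 0.16, and an exact two-sided permutation of genotype within sex gave p = 0.895, where the smallest possible is 0.005. The difference in males minus that in females was 0.35 (95% interval -0.01 to 0.72), with an unadjusted p of 0.0537 and an adjusted p of 0.987 by limma. Without the AS female at 3.40 it was 0.48 (unadjusted p = 0.00678, adjusted p = 0.871), and without the AS female at 2.89 it was 0.22. Of all genes, 3.77% had an unadjusted p under 0.05 in that test and 0.00% passed the adjusted threshold.

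The 2 Ku transcripts were also compared within each library. Xrcc6 exceeded Xrcc5 by 0.85, 0.46 and 0.96 in AS females and by 0.15, 0.10 and 0.22 in WT females. In males the excess was 0.34, 0.39 and 0.77 in AS and 0.49, 0.47 and 0.47 in WT. It averaged 0.76 ± 0.26 in AS females and 0.16 ± 0.06 in WT females, groups that did not overlap, and 0.50 ± 0.23 in AS males and 0.48 ± 0.02 in WT males, groups that did overlap (SD, n = 3 each). The excess holds the values that chose Xrcc6 and has no test. Xrcc6 was above Xrcc5 in all 12 libraries. Over the 12 libraries r between the 2 transcripts was -0.21, and -0.04 after group means were subtracted.

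**Figure D2:**
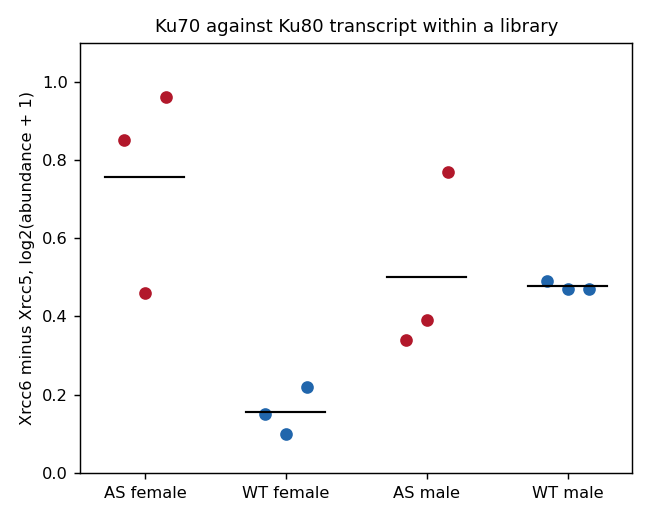
Xrcc6 minus Xrcc5 within each library, in log2(abundance + 1), with points for libraries (AS red, WT blue) and lines for group means. The 3 AS females lie at 0.46 to 0.96 and the 3 WT females at 0.10 to 0.22, while the AS males lie on both sides of the WT males.

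Xrcc4, the scaffold of DNA ligase IV, varied more among mice of 1 group than between genotypes. It was measured at 3.66, 3.21 and 2.93 in AS females and 3.43, 3.45 and 3.14 in WT females. In males the levels were 3.17, 3.17 and 3.07 in AS and 3.06, 3.15 and 3.51 in WT. The highest and the lowest of the 12 values both came from AS females. The difference was -0.08 ± 0.17 in females and -0.10 ± 0.17 in males (adjusted p = 1 and 0.948 by limma), and the 95% interval over both sexes was -0.35 to 0.18. Without the WT female that went against its label by Xist the difference in females was -0.03.

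Mrnip, which encodes a partner of the MRN complex, was the other gene chosen for higher AS values. It was measured at 3.22, 2.92 and 3.00 in AS females and 2.82, 2.66 and 2.58 in WT females. In males it was 3.09, 3.12 and 3.18 in AS and 2.86, 3.04 and 2.78 in WT. The AS libraries were above the WT libraries within each sex, but over both sexes they overlapped, since the highest WT male was above 2 AS females. The difference was 0.36 ± 0.11 in females, 0.24 ± 0.11 in males and 0.30 ± 0.07 over both sexes, a ratio of 1.23 of abundance + 1. With the 4 libraries richest in choroid plexus markers left out it was 0.53 in females. That value rests on a single WT female, the third, whose 2.58 was the lowest of all libraries. Without the WT female that went against its sex label the difference in females was 0.43. Mrnip lies on chromosome 11 (50174444 to 50200115, plus strand, GRCm38, ENSMUSG00000020381).

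The MRN genes themselves did not pass any test. Mre11a, the nuclease, was measured at 2.07, 2.48 and 2.54 in AS females and 2.35, 2.25 and 2.20 in WT females. Among males, values were 2.36, 2.56 and 2.45 in AS and 2.16, 2.45 and 2.61 in WT. Its groups overlapped in both sexes, with differences of 0.10 ± 0.15 and 0.05 ± 0.15 (adjusted p = 1 and 0.968 by limma). Rad50, the ATPase that tethers ends, was measured at 2.64, 2.86 and 2.63 in AS females and 2.71, 2.58 and 2.75 in WT females. The male values were 2.70, 2.83 and 2.71 in AS and 2.46, 2.57 and 2.67 in WT. The 3 AS males were above the 3 WT males, by 0.18 ± 0.10 (unadjusted p = 0.0876, adjusted p = 0.785 by limma), while the females overlapped at 0.03 ± 0.10. Nbn, which encodes the subunit that binds ATM, was measured at 3.35, 3.08 and 3.04 in AS females and 3.23, 3.34 and 3.23 in WT females. In males the levels were 3.21, 3.26 and 3.11 in AS and 3.07, 3.22 and 3.14 in WT. Its differences were -0.11 ± 0.09 and 0.05 ± 0.09 (adjusted p = 1 and 0.952), and both pairs of groups overlapped. Over both sexes the exact permutation p was 0.48 for Mre11a, 0.12 for Rad50 and 0.62 for Nbn.

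Parp1, the break sensor, was the steadiest of the 8 genes, with an SD of 0.09 over the 12 libraries. It was measured at 5.02, 4.96 and 5.17 in AS females and 5.13, 4.95 and 4.94 in WT females. In males it was 4.96, 4.91 and 4.98 in AS and 4.88, 4.87 and 5.04 in WT. The groups overlapped in both sexes, with differences of 0.04 ± 0.08 and 0.02 ± 0.08 (adjusted p = 1 and 0.974 by limma), and the 95% interval over both sexes was -0.09 to 0.15. Without the WT female that went against its label by Xist the difference was 0.11 in females and 0.06 over both sexes (adjusted p = 1 and 0.952), and the interaction was -0.08.

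**Figure D3:**
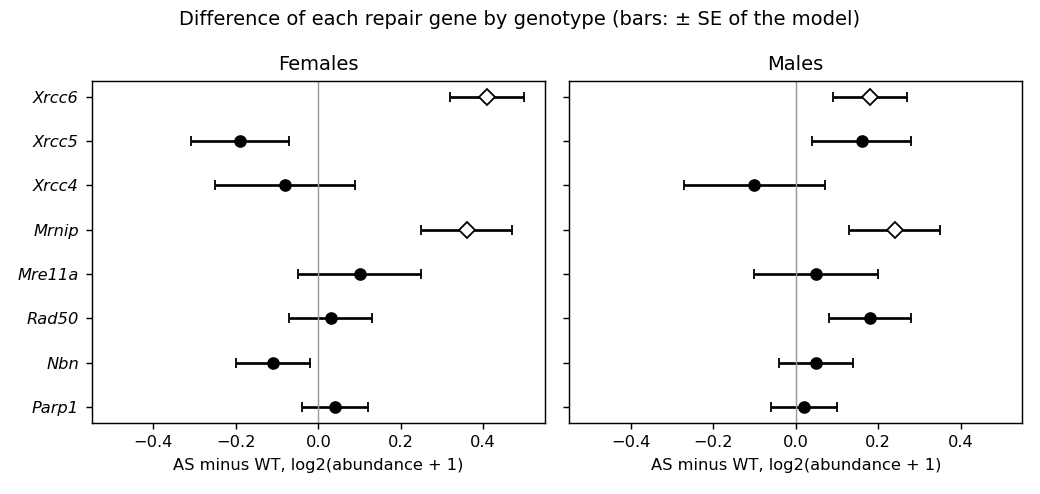
AS minus WT for each of the 8 genes in females (left) and males (right), in log2(abundance + 1), with bars of 1 SE of the model on each side. Open diamonds are Xrcc6 and Mrnip, chosen for higher AS values, at 0.41 and 0.36 in females and 0.18 and 0.24 in males; filled circles are the other 6 genes, none of which passed the adjusted threshold.

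Of the 6 genes not chosen for their values, none passed an adjusted p under 0.05 by limma in females, in males or over both sexes. Nor did any other gene, since 0.00% of the 13858 genes passed in each of these comparisons. An unadjusted p under 0.05 was reached by 0 of these 6 genes in females, in males or over both sexes, against 3.16%, 6.42% and 5.35% of all genes. Non-overlapping groups with higher AS values occurred for 2 of the 8 genes in females and 3 in males, where the share of all genes was 4.99% and 6.02%. Xrcc6 was the only one of the 8 whose 6 AS libraries were all above its 6 WT libraries, as were 0.231% of all genes. Xrcc6 and Mrnip did not overlap in either sex taken by itself, as 0.476% of all genes did. Since both were chosen for this, nothing is read from the counts that include them, which leave Rad50 in males. None of the 8 had non-overlapping groups with lower AS values, as 4.02% of all genes had in females, 5.18% in males and 0.13% over both sexes.

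Sex was the contrast that the choice of genes had not used. None of the 8 genes passed for male minus female over both genotypes, where 0.0361% of all genes did, and 0 of 8 had an unadjusted p under 0.05, where 6.91% did. Mrnip differed most, at 0.15 ± 0.07 (unadjusted p = 0.0763, adjusted p = 0.743 by limma), and without the WT female that went against its label the difference was 0.18 with an unadjusted p of 0.041 and an adjusted p of 0.858. Xrcc6 differed by -0.04 ± 0.06 (95% interval -0.17 to 0.09, adjusted p = 0.929) and Parp1 by -0.09 ± 0.06 (adjusted p = 0.779). The remaining 5 differences lay between -0.12 and 0.12, with adjusted p of 0.861 to 0.943.

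Across the libraries the 8 genes did not move as 1 block. Pearson's r, given as a description over 12 libraries that share their normalization, was highest between Xrcc6 and Mrnip at 0.75, which includes the genotype difference that chose both, and was 0.49 after group means were subtracted. Xrcc4 and Nbn came next at 0.67, and 0.72 after group means. Both were highest in the first AS female and lowest in the third, so this r leans on those libraries. Xrcc5 and Rad50 stood at 0.60 and 0.63, and Mre11a and Rad50, 2 subunits of 1 complex, at 0.44 and 0.59. Nbn, the third subunit, stood at -0.44 with Mre11a and 0.02 with Rad50. Parp1 and Xrcc5 ran opposite, at -0.32 and -0.60.

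**Figure D4:**
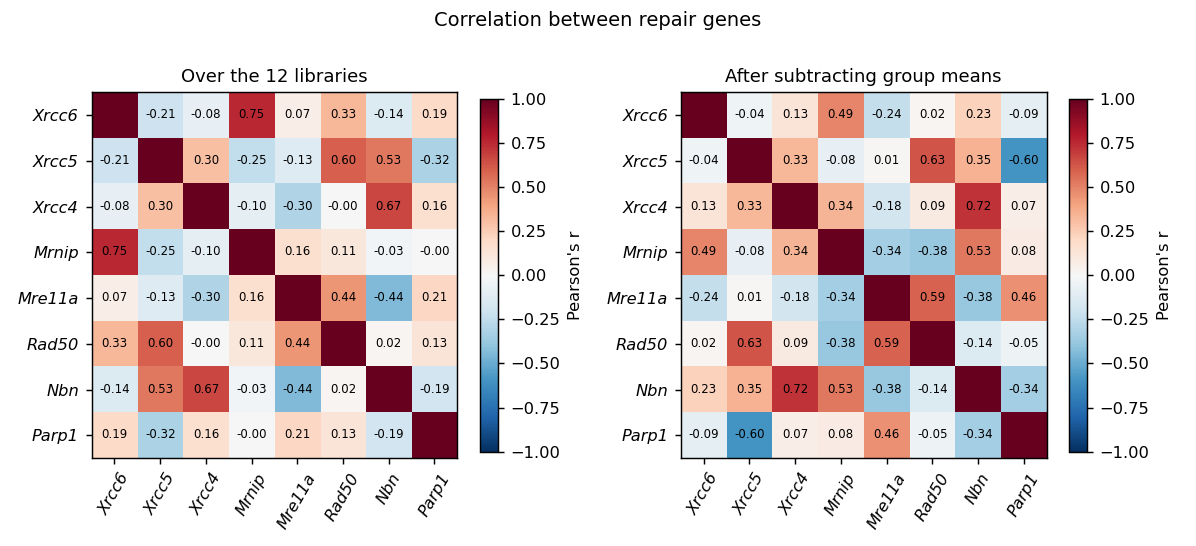
Pearson's r between each pair of the 8 genes over the 12 libraries (left) and after subtracting the mean of each group (right), on a colour scale from -1 (blue) to 1 (red). The pair of Xrcc6 and Mrnip has the highest value on the left, 0.75, and Xrcc4 with Nbn the highest on the right, 0.72.

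The 5 genes whose values followed Xrcc6 most closely over the 12 libraries were Cited1 (r = 0.92), Tmsb15b2 (0.90), Pcna (0.85), Clcn5 (0.84) and Ercc6 (0.82). These r include the genotype difference that chose Xrcc6, so the ranking favours genes split by genotype. After group means were subtracted they were 0.70, 0.65, 0.80, 0.42 and 0.42 in the same order. Pcna encodes the sliding clamp of DNA replication and repair, and Ercc6 a factor of transcription-coupled repair. Cited1, Tmsb15b2 and Clcn5 lie on the X chromosome, as do 3.49% of the 12467 genes ranked. Tmsb15b2 averaged 4.22 ± 0.15 in AS and 3.62 ± 0.16 in WT, and Cited1 1.67 ± 0.20 in AS and 1.25 ± 0.07 in WT (SD, n = 6 each). With group means subtracted the list was another one, led by Rbm12 at 0.94, with Ythdf2, Ppp2ca, Rps6 and Dynlt1f at 0.92 to 0.93. The genes closest to Mrnip, whose genotype difference also enters r, were Sept3 (0.88), Katnal1 (0.87), Dnajc27 (0.85), Slc35c1 (0.84) and Nudcd3 (0.84). After group means were subtracted these stood at 0.71, 0.89, 0.41, 0.63 and 0.40. The genes closest by that measure were Vars (0.94), Emc4 (0.91), Fyb2 (0.90), Sinhcaf (0.89) and Katnal1 (0.89). Katnal1, which encodes a microtubule-severing subunit, was in both lists for Mrnip, while no gene was in both for Xrcc6.

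The genes next to Xrcc6 and Mrnip were examined because reads of overlapping genes can be confused where counting does not use strand, which the sources used here do not state. In the gene annotation, unlike at the RefSeq starts given above, Desi1 overlaps Xrcc6 on the opposite strand over 41340 bases, and transcripts of these genes share a stretch of 346 bases. Desi1 averaged 5.45 in AS and 5.45 in WT, with differences of 0.07 ± 0.11 in females and -0.06 ± 0.11 in males. Snu13, 440 bases to the right, differed by 0.03 ± 0.05 in females and 0.17 ± 0.05 in males (adjusted p = 1 and 0.748 by limma), and Pmm1 on the left by -0.01 and -0.05. Sqstm1, which encodes the autophagy receptor p62, overlaps the end of Mrnip over 750 bases on the opposite strand, shares 583 bases of transcript with it and was far more abundant, at 7.80. It averaged 7.80 in AS and 7.79 in WT, differing by -0.03 ± 0.06 in females and 0.06 ± 0.06 in males. Tbc1d9b and Mgat4b, on either side, differed by -0.02 to 0.01. None of these neighbours passed the adjusted threshold, and Mrnip and Xrcc6 values could hold some reads of the overlapping gene.

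Interneuron markers were also split by genotype in these libraries. The mean of 11 interneuron markers (Gad1, Gad2, Slc32a1 and others) was 4.93 to 5.10 in the AS libraries and 5.12 to 5.35 in the WT libraries, with no overlap, and 11 of 11 were lower in AS over both sexes, though none passed the adjusted threshold. All 12 choroid plexus markers and all 6 meninges markers tested were also lower in AS over both sexes. The summed abundance of the interneuron markers overlapped, at 674 to 802 in AS and 693 to 970 in WT. No interneuron marker was at 0. Of 9 marker lists, that of interneurons was the one whose mean did not overlap between genotypes. Its part in the Xrcc6 and Mrnip values was not tested. Markers of excitatory neurons averaged 5.82 in AS and 5.81 in WT.

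The rest of the end-joining machinery was taken from a list of 19 genes, of which 18 were tested, Xrcc6, Xrcc5 and Xrcc4 among them. Over both sexes 13 were higher in AS and 5 lower, with a median difference of 0.04, where 52.7% of all genes were higher with a median of 0.005. The 13 include Xrcc6, which was chosen for this direction. In males 14 were higher and 4 lower, and in females 9 were higher and 9 lower with a median of -0.02. The shares of all genes that were higher were 52.4% in males and 51.6% in females. In the repair lists below, 60.9% to 76.9% of genes were higher in males. None of the end-joining genes passed the adjusted threshold by limma. Paxx, a stabiliser of Ku on DNA ends, averaged 5.14 ± 0.11 in AS and 5.26 ± 0.16 in WT (difference -0.13 ± 0.06, adjusted p = 0.914). Mad2l2, a subunit of shieldin, which limits end resection, differed by 0.23 ± 0.10 in males and -0.03 ± 0.10 in females (adjusted p = 0.763 and 1). Poll, a gap-filling polymerase, averaged 2.28 ± 0.21 in AS and 2.40 ± 0.13 in WT (adjusted p = 0.94).

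Homologous recombination needs a sister chromatid, and 13 of its list of 28 genes were tested here, 7 higher and 6 lower in AS over both sexes with a median of 0.00. The others were not analysed here. Rpa3, a subunit of the protein that coats single-stranded DNA, averaged 3.65 ± 0.16 in AS males and 3.24 ± 0.12 in WT males, a difference of 0.42 ± 0.11 (unadjusted p = 0.00348, adjusted p = 0.748 by limma), but 3.34 ± 0.19 in AS females and 3.43 ± 0.10 in WT females. Rad51c averaged 1.79 ± 0.20 in AS and 2.01 ± 0.20 in WT (adjusted p = 0.914), and Slx4 and Rad51d differed by 0.10 and -0.15 (adjusted p = 0.92 each).

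Among 19 damage-signalling genes, Mrnip included, 12 were higher and 7 lower, with a median of 0.02. Atm, the kinase that MRN activates, averaged 2.65 ± 0.25 in AS and 2.41 ± 0.19 in WT (difference 0.24 ± 0.13, adjusted p = 0.914 by limma). In females its 3 AS libraries were above the 3 WT libraries, at a mean of 2.66 in AS and 2.33 in WT. The same held for Pcna in females and for 4.99% of all genes. In males the Atm groups overlapped. Among other list genes named here, AS males were all above WT males for Rpa3, Rnf168, Apex2, Ogg1, Xpa and Msh6. For Rad51d and Polb they were all below. The shares of all genes in males were 6.02% above and 5.18% below. Rnf168 and Uimc1, which write and read ubiquitin marks at breaks, differed by 0.07 and -0.06 (adjusted p = 0.94 and 0.954).

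Of 23 genes of single-strand break and base excision repair, with the PARP genes, 12 were higher and 11 lower in AS over both sexes, and none passed the adjusted threshold. An unadjusted p under 0.05 by limma was reached by 5 of the 23 over both sexes, 3 in females and 2 in males. The shares of all genes were 5.35%, 3.16% and 6.42%. Over both sexes 0 of 13 recombination genes and 1 of 26 nucleotide excision and mismatch repair genes reached it. So did 1 of the 19 p53 targets below. The end-joining and damage-signalling lists hold Xrcc6 and Mrnip, which have no test, and no other gene of them reached it. Polb, the main polymerase of base excision repair, averaged 5.13 ± 0.16 in AS and 5.35 ± 0.05 in WT (difference -0.23 ± 0.07, unadjusted p = 0.00667, adjusted p = 0.758 by limma). Pcna averaged 5.16 ± 0.19 in AS and 4.93 ± 0.10 in WT, and Ogg1, which removes oxidised guanine, 2.50 ± 0.18 in AS and 2.30 ± 0.08 in WT (adjusted p = 0.893 and 0.911). Apex2, an X-linked endonuclease, differed by 0.26 ± 0.09 (adjusted p = 0.893). Of 26 nucleotide excision and mismatch repair genes, 15 were higher and 11 lower, with a median of 0.03. Ddb2, which recognises ultraviolet damage, averaged 3.17 ± 0.14 in AS and 3.37 ± 0.09 in WT (adjusted p = 0.893). Xpa averaged 3.59 ± 0.09 in AS males and 3.33 ± 0.04 in WT males (adjusted p = 0.748), and Msh6 and Gtf2h4 differed by 0.13 and -0.17 over both sexes (adjusted p = 0.914 each).

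Targets of p53, the transcription factor that damage signalling activates, were followed as a last list. Of 19 tested, 4 were higher and 15 lower in AS over both sexes, with a median of -0.08. The count was 6 higher and 13 lower in females and 2 higher and 17 lower in males. Among all genes 52.7% were higher over both sexes, 51.6% in females and 52.4% in males. Under the alternatives run the median over both sexes ran from -0.089 to -0.026, in females from -0.102 to 0.006 and in males from -0.152 to 0.0. The -0.102 came from the fit without the 4 choroid-rich libraries, where the third WT female was the only WT female. Without the second AS male 10 of the 19 were higher in males, and without the third WT female 10 were higher in females. That AS male was one of the libraries rich in choroid plexus markers. It also had the lowest weight of all libraries, 0.32, in the fit with library weights. None passed the adjusted threshold by limma. Sesn1, a stress-induced inhibitor of growth signalling, averaged 4.80 ± 0.13 in AS and 4.97 ± 0.10 in WT (difference -0.16 ± 0.06, unadjusted p = 0.0195, adjusted p = 0.893), and Ccng1, Sesn2 and Plk2 differed by -0.16, -0.12 and -0.09 (adjusted p = 0.923, 0.94 and 0.933). The lists were chosen with results of these data known, so these counts describe them only.

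**Figure D5:**
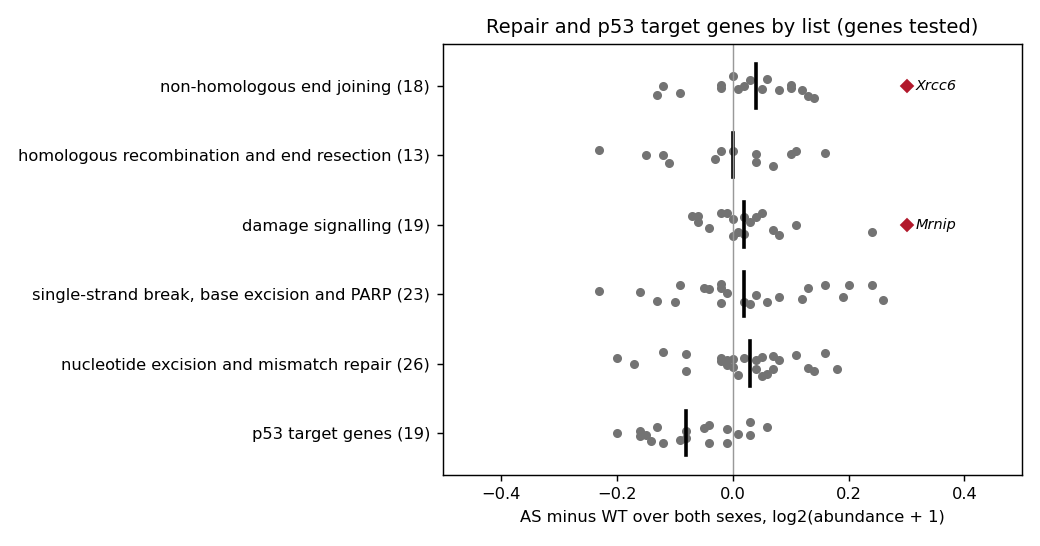
AS minus WT over both sexes for each tested gene of 5 repair lists and the p53 target list, in log2(abundance + 1), with black lines at the list medians and the number of genes in brackets. Xrcc6 and Mrnip (red diamonds, chosen for higher AS values) lie at 0.30, to the right of every other gene shown, and the p53 target median lies at -0.08.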

How the data were processed

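Polyadenylated RNA of the ventral hippocampus was sequenced, and the submitters' processing notes name Trimmomatic, Bowtie2, RSEM and GRCm38 (mm10) with no versions. The deposited table holds 13951 Ensembl genes for the 12 libraries, taken as the natural log of 1 plus an RSEM abundance, with most mid-range values shared between columns as after quantile normalization. Base 2 cannot be set aside, and would multiply each difference by the natural log of 2. The table gives no counts, so depth and counting error are unknown. Whether the abundance is TPM, FPKM or another measure and whether counting used strand are not given in the sources used here.

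Values were turned into log2(abundance + 1), 93 genes were dropped for a mean abundance below 1, and 4 group means were fitted to all 12 libraries over 13858 genes with limma 3.58.1 in R 4.3.3 (trended prior variance, 8 residual degrees of freedom). Contrasts were AS minus WT in each sex, over both sexes, their difference (males minus females), and male minus female. Calls needed a Benjamini-Hochberg adjusted p under 0.05. The script was tested on simulated data. Exact permutations of genotype within sex gave 400 arrangements. Shared transcript sequence was sought with blastn 2.17.0 (97% identity over 100 bases). Symbols, coordinates and overlaps came from the GRCm38 gene annotation, and 216 identifiers had no symbol.

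The members, lists and tests were chosen with earlier results of these data known. All 8 members are named, with up to 4 genes per list by smallest unadjusted p over both sexes, the nearest tested protein-coding neighbours, and the 5 genes with the highest r with Xrcc6 or Mrnip. Alternatives were another constant, filter, base, variance prior, library weights, repeated quantile normalization, a choroid plexus covariate, fits of 1 sex, and libraries left out.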

Additional observations from a re-analysis of the deposited data

How the results depend on the processing

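Of 937 alternative values for the 8 genes, 901 counted as unchanged, 33 turned sign and 3 moved by more than the spread between replicates. Part of these values could not move, so the count does not measure stability. A filter or variance prior leaves a difference of group means as it was, as does a left-out library outside the groups compared. The permutations repeat the reported value. Leaving out the WT female that went against its sex label was counted again under a setting of its own. Where a value had a test, unchanged meant the same direction and side of the 0.05 threshold, which none crossed. For the genotype and interaction values of Xrcc6 and Mrnip, which have no test, it meant a move smaller than that spread. Xrcc6 stayed higher in AS under every alternative run, at 0.28 to 0.45 in females, 0.11 to 0.23 in males and 0.20 to 0.33 over both sexes, and Mrnip at 0.25 to 0.53, 0.16 to 0.31 and 0.21 to 0.39. Read as base 2 the Xrcc6 difference in females was 0.28. Leaving out the 4 libraries highest in choroid plexus markers was a setting chosen after seeing the data. It left the third WT female as the only WT female. In that fit Mrnip was 0.53 in females with an interaction of -0.29. Xrcc4 was 0.15 in females and 0.02 over both sexes, Rad50 -0.11 in females and Mre11a -0.00 in males. With the choroid plexus covariate Xrcc5 was 0.00 over both sexes and 0.01 for sex, and the Parp1 interaction 0.00; with library weights the Mre11a interaction was 0.01. Leaving out 1 library at a time, ranges that crossed 0 were, in females, -0.27 to 0.09 for Xrcc4, -0.04 to 0.07 for Rad50 and -0.02 to 0.11 for Parp1. In males they were -0.19 to 0.04 for Xrcc4, -0.08 to 0.15 for Mre11a and -0.01 to 0.08 for Parp1. Over both sexes Xrcc5 ran from -0.08 to 0.05. The interaction ran from -0.19 to 0.18 for Xrcc4, -0.19 to 0.06 for Mre11a and -0.08 to 0.04 for Parp1, and the sex difference of Nbn from -0.07 to 0.00. The correlation of Xrcc6 and Mrnip ran from 0.68 to 0.81. Counts of genes called, 0 in the genotype comparisons and 5 for sex as reported, ran from 0 to 1 in females, males and the interaction, 0 to 2 over both sexes and 4 to 8 for sex when 1 library was left out. Without the WT female that went against its sex label they were 1 in females, 1 over both sexes, 1 for the interaction and 8 for sex. Without the 4 choroid-rich libraries they were 12 for sex, 2 for the interaction, 2 over both sexes, 1 in males and 5 in females, and at a mean abundance of at least 5 the count for sex was 3; that filter leaves out Mre11a. None of the added calls was among the genes not chosen for their values. Xrcc6 and Mrnip were tested for sex only and were not called there. The causes were not tested. No paired analysis was possible because the replicate numbers follow accession order and pair no mice. The deposited values give no counts, so depth set no limit that could be measured.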
